A study of Mus musculus with 8 samples.

Results

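*RhoA*, *RhoB* and *RhoC* are 3 closely related small GTPases of the mouse, and *RhoA* is the gene that was deleted in these myotubes. The genes were taken by their symbols, *Rhoa*, *Rhob* and *Rhoc*, from the 19505 genes that the array rows name. Each symbol has 1 row on the array, so no choice between rows was needed. The cells were primary myoblasts of *RhoA* flox/flox mice carrying the Pax7-nGFP reporter of satellite cells, isolated from the hindlimb by FACS. They were differentiated for 3 days into myotubes and transduced for 48 h with an adenovirus. The 4 Ad-mCherry arrays are of myotubes given the virus with the red fluorescent protein mCherry alone, and the 4 Ad-Cre-mCherry arrays are of myotubes given the virus with the recombinase Cre and mCherry. All 8 arrays thus share the floxed alleles, the reporter, the culture and a transduction, and the groups differ in Cre as well as in the deletion, which cannot be told apart here. Cre removes exon 3 of *RhoA*, and cells that the virus did not reach keep it. The sources used here give neither the age of the mice nor how many stand behind a culture.

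RhoA, RhoB and RhoC are molecular switches. Exchange factors (GEFs) load them with GTP and turn them on, GTPase-activating proteins (GAPs) make them hydrolyse it and turn them off, and dissociation inhibitors (GDIs) hold the inactive form in the cytosol. Active RhoA binds the kinases Rock1 and Rock2 and the formin Diaph1, which drive actomyosin contraction and actin polymerization. By using up monomeric actin, this releases the Mrtf cofactors of the serum response factor Srf, a transcription factor needed for muscle growth. RhoC binds much the same effectors and is best known from the motility of tumour cells, whereas RhoB sits largely on endosomes, is short-lived, and is made from an early-response gene.

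The values are log2 expression on the scale that the authors deposited, so a difference of 1 is a doubling or a halving. The median of an array was 4.78 to 4.87. No row is marked as detected or not, so the distance of a dim row from background is unknown. Genes were compared with limma over all 19505 genes, and the thresholds of the study are a fold change of at least 1.2 with an unadjusted p under 0.05. By these thresholds 6.42% of all genes differed, 3.50% lower and 2.92% higher with Ad-Cre-mCherry, and at any size 49.8% were lower and 50.2% higher. With adjustment over all genes limma called 0 genes, or 0%, and 1252 genes (6.42%) had an unadjusted p under 0.05. Precision is limited by how few arrays there are. Nothing in the labels says that the 4 arrays of a group came from separate animals, so the p-values cover the spread between these arrays, which may be technical in part.

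*RhoA* was lower in the Ad-Cre-mCherry myotubes, to about 58.8% of the Ad-mCherry level, but by very unequal amounts from one replicate number to the next. In replicates 1, 2, 3 and 4 in turn its log2 level was 11.16, 11.39, 11.08 and 11.39 on the Ad-mCherry arrays, against 9.99, 10.87, 10.87 and 10.23 on the Ad-Cre-mCherry arrays. The groups did not overlap, which held for 3.75% of all genes, 1.93% in this downward direction and 1.82% upward. Between the arrays that share a replicate number, *RhoA* stood at 44.4% of the Ad-mCherry level in replicate 1, 69.7% in replicate 2, 86.5% in replicate 3 and 44.8% in replicate 4. Replicate 4 therefore lay near replicate 1, and replicate 3 had kept most of the signal. The spread among the Ad-Cre-mCherry arrays (SD 0.45, n = 4) was larger than among the Ad-mCherry arrays (SD 0.16, n = 4). Among the controls only 17.4% of genes had a smaller SD than *RhoA*, and among the Ad-Cre-mCherry arrays 69.0% had.

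The *RhoA* differences were also read against what other genes did in the same pair of arrays. In replicate 4, 1.26% of genes had a more negative difference than *RhoA*, in replicate 1 it was 5.40%, in replicate 2 it was 13.4% and in replicate 3 it was 27.8%. The pairs themselves differed in how far their 2 arrays lay apart. A difference beyond 1 on the log2 scale was found for 13.3% of genes in replicate 1, 5.35% in replicate 2, 1.99% in replicate 3 and 3.87% in replicate 4. The pair with the fewest distant genes, replicate 3, was also the pair with the smallest *RhoA* difference. Over all 8 arrays the log2 fold change of *RhoA* was -0.77 (standard error 0.23, limma p = 0.00909, adjusted p = 0.729, two-sided exact permutation p = 0.0286), and it passed the thresholds of the study. That permutation test ignores the replicate numbers. With the replicate numbers as pairs, the exact sign-flip test gave p = 0.125, the smallest possible with 4 pairs. The row reports *RhoA* transcript as a whole, and the sources used here do not place its probes relative to exon 3. The row therefore does not separate transcript with the exon from transcript without it.

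**Figure D1:**
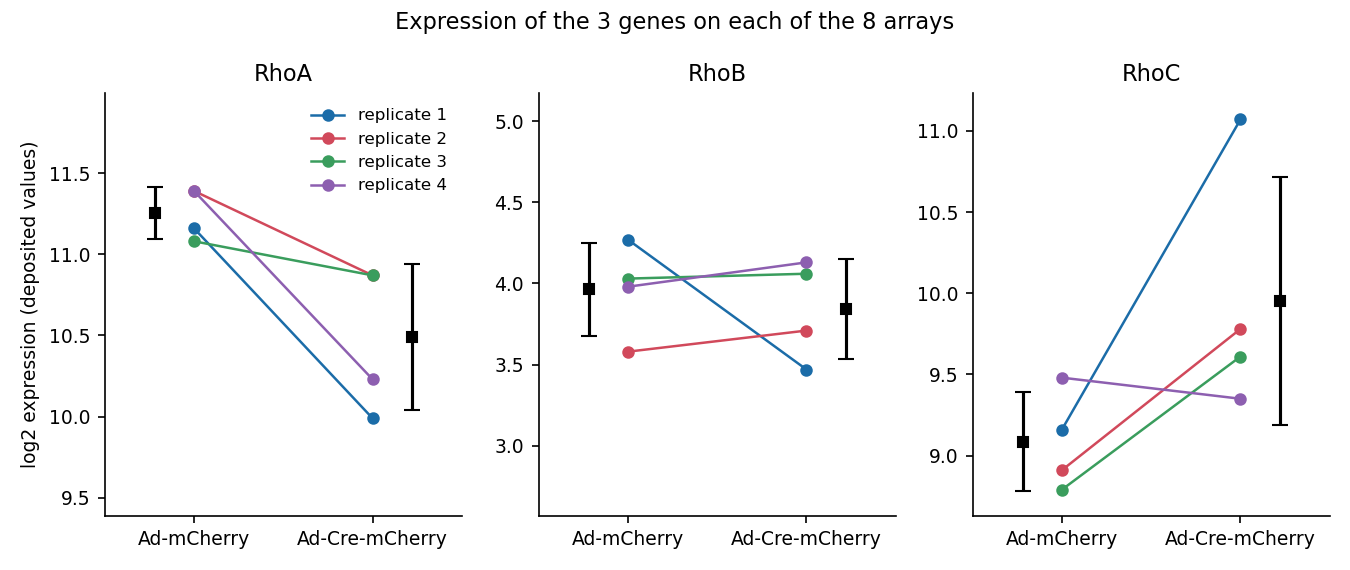
Log2 expression (vertical axis) of *RhoA*, *RhoB* and *RhoC* on the Ad-mCherry and Ad-Cre-mCherry arrays. Coloured points are single arrays joined by replicate number, black squares and bars are the mean and SD of 4 arrays, and each panel spans the same range of log2 units. All 4 *RhoA* lines go down, the *RhoC* lines go up in replicates 1, 2 and 3, and the *RhoB* line of replicate 1 goes down by 0.80 while its other lines move by 0.03 to 0.15.

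*RhoC* was higher with Ad-Cre-mCherry in 3 of 4 replicate numbers. Its log2 level in replicates 1 to 4 was 9.16, 8.91, 8.79 and 9.48 on the control arrays, and Ad-Cre-mCherry gave 11.07, 9.78, 9.61 and 9.35. Ad-Cre-mCherry replicate 1 was the highest of the 8 arrays by a wide margin, while Ad-Cre-mCherry replicate 4 fell inside the range of the controls, so the groups overlapped. By replicate number the level with Ad-Cre-mCherry was 3.76-fold, 1.83-fold, 1.77-fold and 0.91-fold that with Ad-mCherry. In replicates 1, 2 and 3, no more than 3.89% of genes had a larger upward difference than *RhoC*, namely 0.979%, 3.89% and 2.45%, and in replicate 4 the share was 61.5%.

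The group means of *RhoC* were 9.09 ± 0.31 and 9.95 ± 0.77 (SD, n = 4 arrays each). The log2 fold change was 0.87, or 1.82-fold (standard error 0.36, 95% confidence interval 0.06 to 1.67). It passed the thresholds of the study (limma p = 0.0376) but not the adjusted threshold (limma adjusted p = 0.760), nor a two-sided exact permutation test of 4 against 4 arrays (p = 0.0571). A gene-wise test with unequal variances, without limma's shared variance, had an interval of -0.28 to 2.02 for the same fold change. The value rests heavily on replicate 1. Without both arrays of replicate 1 the log2 fold change was 0.52, without Ad-Cre-mCherry replicate 1 alone it was 0.49, and neither passed the thresholds of the study. Of the 12 settings without 1 array or 1 replicate number, *RhoC* passed in 4.

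*RhoB* showed no difference that this design could resolve. Its log2 level in replicates 1 to 4 was 4.27, 3.58, 4.03 and 3.98 for Ad-mCherry, against 3.47, 3.71, 4.06 and 4.13 for Ad-Cre-mCherry. The groups overlapped almost wholly, and replicate 1 was lower by 0.80 while the other three were higher by 0.03 to 0.15. The log2 fold change was -0.12 (standard error 0.21, limma p = 0.581, adjusted p = 0.938, two-sided exact permutation p = 0.600), with a 95% confidence interval of -0.61 to 0.36, and it was 0.10 without replicate 1. The interval thus reaches from a level lower by 0.61 to one higher by 0.36 on the log2 scale. The *RhoB* row lies below the median row mean of 4.88, where a change of the transcript could go unseen, whereas the *RhoA* and *RhoC* rows lie well above it. The brightness of a row depends on its probes, so these rows do not rank the 3 transcripts by abundance.

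Whether the 3 genes changed unequally was tested on the log2 differences between 2 genes within each array, which cancel whatever shifts a whole array. The *RhoC* minus *RhoA* difference was -2.17 ± 0.26 with Ad-mCherry and -0.54 ± 1.09 with Ad-Cre-mCherry (SD, n = 4 arrays each). It went from -2.0 to 1.08 in replicate 1, from -2.48 to -1.09 in replicate 2, from -2.29 to -1.26 in replicate 3 and from -1.91 to -0.88 in replicate 4. All 4 Ad-Cre-mCherry values lay above all 4 Ad-mCherry values. The shift was 1.63 on the log2 scale, a 3.10-fold change in the ratio of *RhoC* to *RhoA* signal (95% confidence interval 0.26 to 3.0 on the log2 scale, exact permutation p = 0.0286, two-sided and the lowest possible with 4 against 4 arrays). Adjusted over the 3 differences tested, p was 0.0857, which misses 0.05. Without replicate 1 the shift was 1.15.

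In the ratio of *RhoC* to *RhoA*, then, replicate 4 moved as replicate 3 did, although the 2 genes shared it differently. In replicate 4 *RhoA* was lower by 1.16 and *RhoC* differed by -0.13, and in replicate 3 *RhoA* was lower by 0.21 and *RhoC* higher by 0.82. In replicates 1, 2 and 3 the differences were -1.17, -0.52 and -0.21 for *RhoA*, and 1.91, 0.87 and 0.82 for *RhoC*. The 2 genes thus kept the same order of size in these replicates, and replicate 4 departed from it. Whether the 2 differences go together was not tested. The *RhoB* minus *RhoA* shift was 0.64 (95% confidence interval -0.10 to 1.39, exact permutation p = 0.114), upward in 4 of 4 replicate numbers. The *RhoC* minus *RhoB* shift was 0.99 (95% confidence interval -0.37 to 2.35, exact permutation p = 0.114), upward in 3 of 4. Neither of these separates the 2 genes beyond the spread of the arrays, and both intervals include 0.

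**Figure D2:**
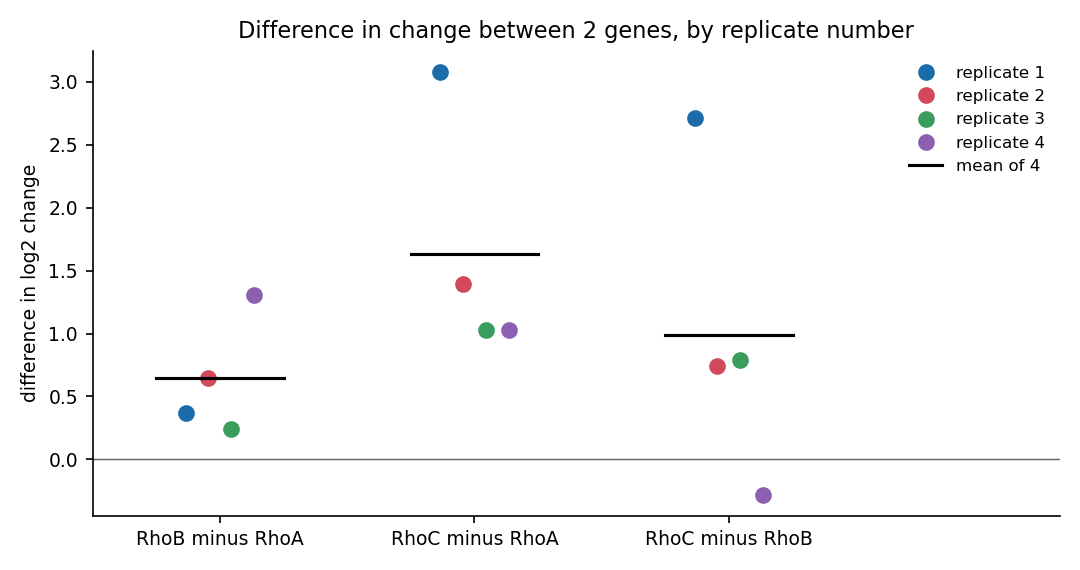
Difference between 2 genes in their log2 change from Ad-mCherry to Ad-Cre-mCherry (vertical axis) for each replicate number, with a black line at the mean of 4. The *RhoC* minus *RhoA* points lie between 1.03 and 3.08, all above 0, and replicate 4 of *RhoC* minus *RhoB* lies at -0.28.

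Taking the replicate number as a block narrowed the intervals of *RhoA* and *RhoC* and called neither after adjustment over all genes. With the block the 95% confidence interval was -1.23 to -0.30 for *RhoA* (limma adjusted p = 0.138), -0.58 to 0.34 for *RhoB* (adjusted p = 0.848) and 0.25 to 1.49 for *RhoC* (adjusted p = 0.184). By the thresholds of the study *RhoA* and *RhoC* passed with the block too, in a fit where 14.7% of all genes passed, 8.20% lower and 6.54% higher, where the same 14.7% had an unadjusted p under 0.05, and where limma called 0.323% after adjustment. In the fit without the block, *RhoA* missed them in 1 of the 12 settings with arrays left out, the one without replicate 4 (log2 fold change -0.63).

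**Figure D3:**
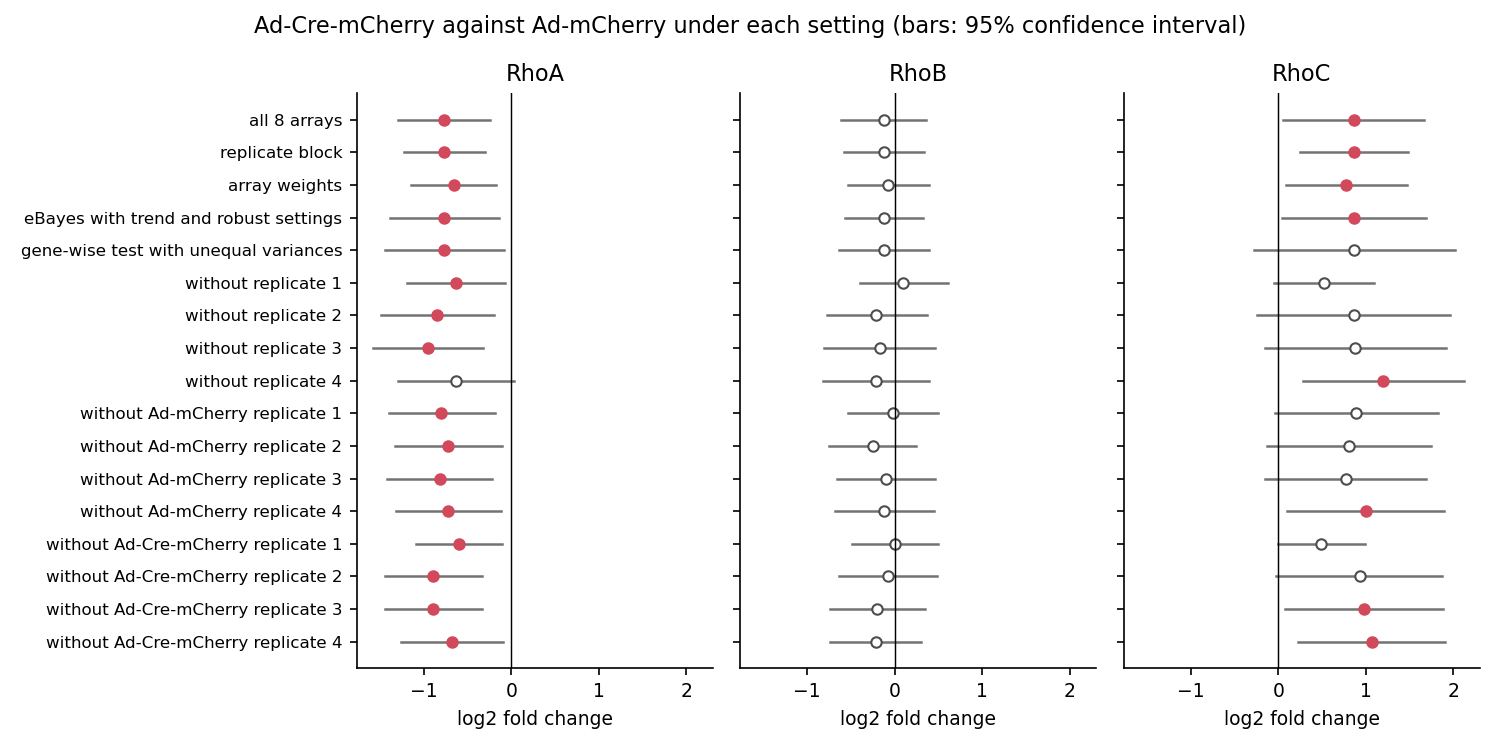
Log2 fold change of *RhoA*, *RhoB* and *RhoC* (horizontal axis) with its 95% confidence interval under the settings named on the vertical axis. Filled points pass the thresholds of the study and open points do not. *RhoA* stays between -0.95 and -0.60 in the 12 settings with arrays left out, *RhoB* lies on both sides of 0, and *RhoC* ranges from 0.49 to 1.2.

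Against the other GTPases of their family, *RhoA* had the most negative and *RhoC* the most positive log2 fold change of the 19 family members measured. The 16 others lay between -0.44 and 0.46. Of them 0 passed the thresholds of the study in either direction, beside 6.42% of all genes (limma p from 0.145 to 0.929). *Rhobtb2*, an atypical GTPase linked to ubiquitin ligases, was at 0.46 (standard error 0.44), and at 0.12 without Ad-mCherry replicate 2. *Rac1*, which drives lamellipodia, was at 0.15 (standard error 0.32) and *Cdc42*, which drives filopodia and polarity, at -0.13 (standard error 0.25). *Rnd3*, which opposes RhoA signalling, was at 0.04 (standard error 0.41). *Rac1*, *Cdc42* and *Rnd3* were named for their roles, after their values were seen. The median of the 16 was 0.09, beside 0.00 for all genes. These values are log2 fold changes, and with standard errors of 0.14 to 0.44 they do not show that the other members were unchanged.

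**Figure D4:**
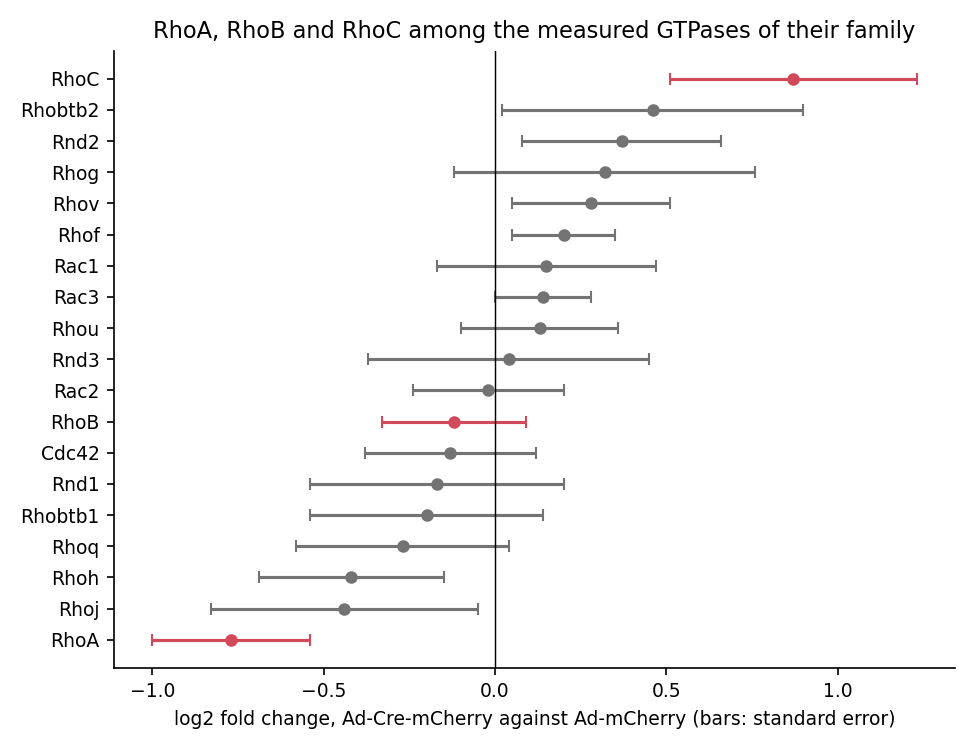
Log2 fold change with Ad-Cre-mCherry against Ad-mCherry (horizontal axis, bars of 1 standard error) of the 19 measured GTPases of the family, in order of the value, with *RhoA*, *RhoB* and *RhoC* in red. *RhoA* at -0.77 and *RhoC* at 0.87 are the ends of the order.

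The genes that switch these GTPases on and off were next counted by role. Among 26 measured exchange factors, 19 had a lower and 7 a higher mean (median log2 fold change -0.19). By the thresholds of the study 1 was lower, 3.85%, close to the 3.50% of all genes, and 0 were higher. It was *Vav2*, an exchange factor activated by tyrosine kinases, whose log2 level was 5.53, 4.87, 4.76 and 4.82 for Ad-mCherry, against 3.93, 4.0, 4.27 and 4.0 for Ad-Cre-mCherry. All 4 Ad-Cre-mCherry values of this dim row lay below all controls, as for 1.93% of all genes (log2 fold change -0.94, standard error 0.20, limma adjusted p = 0.713).

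Among 23 measured GAPs, 16 had a lower and 7 a higher mean (median -0.12). Of these 3 were lower by the thresholds of the study, 13.0% beside 3.50% of all genes, with 0 higher. *Myo9a*, an unconventional myosin whose tail carries a GAP domain for RhoA, had the smallest p of them. Its log2 level was 7.54, 7.80, 7.77 and 7.43 for Ad-mCherry, against 6.31, 5.91, 6.64 and 5.86 for Ad-Cre-mCherry. The groups did not overlap, as for 1.93% of all genes in this direction. The log2 fold change was -1.46 (standard error 0.21, limma adjusted p = 0.680, and 0.0314 with the replicate number as a block). *Arhgap28*, a GAP for RhoA, was at -0.82 (standard error 0.27) and *Arhgap21*, a GAP of the Golgi and of cell junctions, at -0.58 (standard error 0.22). With arrays left out *Arhgap28* passed in 10 of 12 settings, not without replicate 1 or without replicate 2, and *Arhgap21* in 6 of 12, at -0.33 without replicate 1. With the block, limma also gave *Stard13*, a RhoA GAP of the Dlc family, an adjusted p of 0.0314. It was named after its value was seen, and in the fit without the block it was at -1.44 (standard error 0.66) and did not pass.

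Of the GDIs, *Arhgdib*, the form typical of blood cells, and *Rap1gds1*, which binds newly made small GTPases, were the 2 measured. They were at 0.17 (standard error 0.91) and 0.16 (standard error 0.24), and neither passed. *Arhgdia* was not analysed here.

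Among 18 measured effectors of these GTPases and their close partners, 12 had a lower and 6 a higher mean (median -0.17). The thresholds of the study were passed downward by 3, or 16.7% beside 3.50% of all genes, and upward by 0, beside 2.92%. *Ppp1r12a*, the targeting subunit of myosin phosphatase that Rock kinases inhibit, was at 11.52, 11.71, 11.20 and 11.03 for Ad-mCherry, against 9.45, 10.62, 10.67 and 10.51 for Ad-Cre-mCherry. The groups did not overlap, as for 1.93% of all genes in this direction. Ad-Cre-mCherry replicate 1 lay far below the other arrays (log2 fold change -1.05, standard error 0.29, limma adjusted p = 0.729). *Daam1*, a formin, was at -0.77 (standard error 0.23) and *Diaph2*, another formin, at -0.67 (standard error 0.24). Without replicate 1 *Daam1* was at -0.47 and still passed, and *Diaph2* passed in 8 of the 12 settings with arrays left out, with -0.46 without replicate 1. *Rock1* itself was at -0.54 (standard error 0.25) and *Diaph1* at 0.36 (standard error 0.31), neither past the thresholds, both named for their place in the pathway after their values were seen. *Rock2* was not analysed here.

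RhoA, RhoB and RhoC reach membranes only after a lipid has been attached to their carboxyl terminus. Of 12 measured genes of prenylation and processing 8 were higher and 4 lower (median 0.15), and 0 passed the thresholds of the study, beside 6.42% of all genes. *Fdft1*, which draws the shared precursor into sterols, had the largest shift, 0.66 (standard error 0.31). Of 11 genes of the degradation of these GTPases 4 were higher and 7 lower (median -0.28), and 2 passed downward, 18.2% beside 3.50% of all genes. They were *Fbxw7*, a substrate receptor of a ubiquitin ligase, at -1.20 (standard error 0.43) and *Xiap*, a ubiquitin ligase that inhibits caspases, at -0.61 (standard error 0.26). With arrays left out, *Fbxw7* passed in 6 of 12 settings, at -0.73 without replicate 1, and *Xiap* in 4.

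Downstream stands the list of Srf, its Mrtf cofactors and target genes. Among 29 measured genes, 22 had a lower and 7 a higher mean (median -0.42), and 4 were lower by the thresholds of the study, 13.8% beside 3.50% of all genes. *Ccn1*, a matricellular protein that is also a Yap target, was at 12.28, 13.95, 13.29 and 12.43 for Ad-mCherry, against 10.24, 11.97, 12.30 and 10.86 for Ad-Cre-mCherry. The groups overlapped through Ad-Cre-mCherry replicate 3 (12.30), just above the lowest control (log2 fold change -1.65, standard error 0.52, limma adjusted p = 0.729, and 0.0314 with the block). *Ankrd1*, a muscle ankyrin repeat protein, was at -1.18 (standard error 0.36, adjusted p = 0.0444 with the block in limma). *Ptgs2*, which encodes cyclooxygenase 2, was at -1.41 (standard error 0.49) and *Tpm4*, a tropomyosin, at -0.95 (standard error 0.40). With arrays left out *Tpm4* passed in 6 of 12 settings, and *Ptgs2* and *Ankrd1* in 11 each, *Ptgs2* not without replicate 2 and *Ankrd1* not without replicate 1. *Ptgs2* was at -0.85 without replicate 1. With the block 12 of the 29, or 41.4%, passed the thresholds of the study downward, where 8.20% of all genes did. The third gene of the list with an adjusted p under 0.05 in limma with the block was *Acta2*, smooth muscle actin (0.0428), at -1.17 (standard error 1.16) and not past the thresholds without the block. It was named after its values were seen. The paper states that *RhoA* deletion in cultured myotubes left *Acta1*, *Cnn2*, *Egr1*, *Myl9* and *Ptgs2* unaffected. Here *Cnn2* was at 0.45 (standard error 0.59) and *Myl9* at 0.24 (standard error 1.25). *Acta1* was at -0.15 (standard error 0.25) and *Egr1* at -0.36 (standard error 0.47), and none of these passed the thresholds. *Ptgs2* passed them, with an adjusted p of 0.738 in limma.

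**Figure D5:**
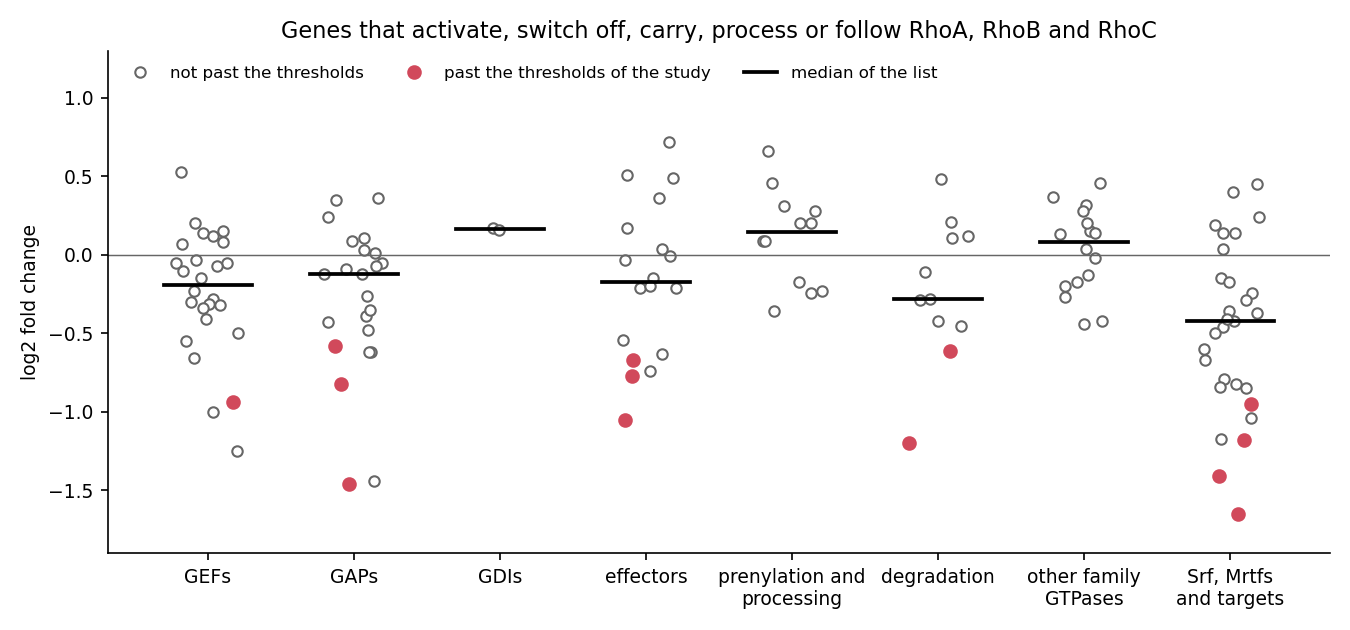
Log2 fold change (vertical axis) of each measured gene in 8 lists around the 3 GTPases, with a black line at the median of the list and red points for genes past the thresholds of the study. All red points lie below 0, and the list of Srf, Mrtfs and targets has the lowest median, -0.42.

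The cultures were read for other cells on the same arrays. The summed level of 12 myotube markers was 21.14 to 21.38 on the log2 scale with Ad-mCherry and 20.86 to 21.31 with Ad-Cre-mCherry, and 11 of the 12 were lower. The thresholds of the study were passed downward by 2 of them, 16.7% beside 3.50% of all genes. These were *Myog* (log2 fold change -1.48) and *Myh3* (-1.23), a regulator and an embryonic myosin of differentiating muscle. With the block 5 passed downward, 41.7% beside 8.20% of all genes, and 1 upward, *Ckm*, the muscle creatine kinase (0.62). *Myog*, *Myh3* and *Mymx*, a peptide needed for myoblast fusion (-1.71), each had a limma adjusted p of 0.0396 with the block, and these 4 markers were named after their values were seen. Of 9 myoblast and satellite cell markers 8 were lower, with sums of 14.04 to 14.73 and 13.79 to 14.23. Downward calls numbered 1, or 11.1%, and with the block 7, or 77.8% beside 8.20% of all genes. Sums of 10 fibroblast markers were 7.79 to 8.62 and 7.80 to 8.23, of 8 endothelial markers 6.63 to 6.89 and 6.73 to 7.16, and of 8 macrophage and leukocyte markers 7.23 to 7.40 and 7.06 to 7.31. Of these 3 lists 0 genes passed the thresholds, beside 6.42% of all genes. The part of the lower muscle markers in the *RhoA* and *RhoC* differences was not tested. In whole cultures, fewer cells of a type and less RNA per cell cannot be told apart.

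Over the 8 arrays, the genes closest to each of the 3 were listed by Pearson's r among 9442 genes with a proper name at or above the median row mean, as a description without a test. Closest to *RhoA* were *Hace1*, a ubiquitin ligase (r = 0.97, Spearman correlation 0.89), *Atf2*, a transcription factor (0.97, 0.95), and *Cul1*, a ubiquitin ligase scaffold (0.96, 0.95). Opposite to *RhoA* ran *Xab2* and *Krt18*, a keratin, both at r = -0.93, and *Pank2*, a kinase of coenzyme A synthesis, at -0.93. *Atf2* was at 9.76, 9.77, 9.23 and 9.51 for Ad-mCherry, against 7.73, 8.76, 9.06 and 7.92 for Ad-Cre-mCherry, so it too was lowest in Ad-Cre-mCherry replicates 1 and 4. *Krt18* was at 3.97, 3.96, 3.86 and 4.73 for Ad-mCherry, against 7.44, 4.97, 5.53 and 7.55 for Ad-Cre-mCherry, highest in the same 2 arrays. Its Ad-mCherry values lie below 4.88, so it entered this comparison through its Ad-Cre-mCherry values.

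Closest to *RhoC* were *Ywhag*, a 14-3-3 protein (r = 0.98, Spearman correlation 0.98), *Dctn2*, a dynactin subunit (0.98, 0.90), and *Timm29*, of mitochondrial import (0.97, 0.90). *Ywhag* was at 11.03, 10.62, 10.79 and 11.33 for Ad-mCherry, against 12.83, 11.91, 11.54 and 11.26 for Ad-Cre-mCherry. Among the Ad-Cre-mCherry arrays it was highest in replicate 1 and lowest in replicate 4, as *RhoC* was, and among the controls both were highest in replicate 4. Opposite to *RhoC* ran *Rbm24*, an RNA-binding protein of muscle (r = -0.98), *Smc5* (-0.97) and the cohesin loader *Nipbl* (-0.97). Closest to *RhoB* were *Gnpnat1*, of hexosamine synthesis (0.97), *Gins3*, of DNA replication (0.95), and *Rif1* (0.94), with log2 fold changes of -0.08, -0.05 and -0.41. Opposite to it ran *Shc2* (-0.95), *Clcn7* (-0.94) and *Twnk* (-0.93). The 8 points of each r hold 2 groups and 4 replicate numbers, and a highest value out of 9442 is high by selection.

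The 3 genes lie on different chromosomes in the RefSeq annotation of GRCm38.p6, *RhoA* at chr9:108306160-108337943, *RhoB* at chr12:8497661-8500009 and *RhoC* at chr3:104789034-104794459, and no annotated gene overlaps them. Their promoters are shown to set *RhoC*, whose mean was higher with Ad-Cre-mCherry, beside the others, because Cre leaves all of these regions in place. Each is the 250 bases before a RefSeq start, 5′ to 3′ on the gene's strand, and *RhoA* has 2 such starts. Capitals mark CCAAT and GGGCGG on either strand.
Rhoa, first start, chr9:108305910-108306159, plus strand: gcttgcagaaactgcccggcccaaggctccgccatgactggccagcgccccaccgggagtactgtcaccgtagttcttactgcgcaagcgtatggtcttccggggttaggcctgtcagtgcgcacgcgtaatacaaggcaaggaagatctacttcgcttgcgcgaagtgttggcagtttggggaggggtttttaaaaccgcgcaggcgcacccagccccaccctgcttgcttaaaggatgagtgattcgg
Rhoa, second start, chr9:108306547-108306796, plus strand: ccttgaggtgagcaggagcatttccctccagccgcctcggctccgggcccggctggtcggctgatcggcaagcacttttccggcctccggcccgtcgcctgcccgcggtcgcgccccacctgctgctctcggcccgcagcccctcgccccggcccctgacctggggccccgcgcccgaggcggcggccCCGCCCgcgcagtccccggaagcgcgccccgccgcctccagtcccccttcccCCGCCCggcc
Rhob, chr12:8500010-8500259, minus strand: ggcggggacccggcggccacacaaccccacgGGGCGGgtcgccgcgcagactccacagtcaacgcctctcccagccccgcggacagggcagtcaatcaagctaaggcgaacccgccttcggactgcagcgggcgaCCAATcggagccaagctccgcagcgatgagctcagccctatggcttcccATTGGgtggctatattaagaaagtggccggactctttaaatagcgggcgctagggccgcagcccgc
Rhoc, chr3:104788784-104789033, plus strand: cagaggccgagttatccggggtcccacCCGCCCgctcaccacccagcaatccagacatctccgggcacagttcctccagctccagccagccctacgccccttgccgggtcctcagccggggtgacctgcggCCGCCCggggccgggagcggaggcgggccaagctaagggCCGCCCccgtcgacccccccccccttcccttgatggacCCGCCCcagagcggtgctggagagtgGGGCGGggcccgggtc

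The *RhoC* window holds 5 matches to GGGCGG, the letters of a GC box, the second *RhoA* window 2, the *RhoB* window 1 and the first *RhoA* window 0. Of 32851 windows of this length over all genes, 32.7% hold at least 1. Windows with 5 matches were not counted, so this share is no background for the 5 of *RhoC*. Whether the matches bear on its level was not tested. CCAAT, found in 33.8% of windows, occurs in the *RhoB* window alone, with 2 matches, and none of the marked matches overlap. The CArG box bound by Srf, found in 1.47% of windows, matched none of the 4, and neither did TATAAA (12.4% of windows), TGACGTCA (1.55%), TGANTCA (6.75%) or CATTCC (12.6%), each searched on both strands. CANNTG, in 66.2% of windows, had 1 match in the second *RhoA* window and none in the others. It reads the same on both strands, so a match was counted once. The GC content was 58.8% and 79.6% for the *RhoA* windows, 66.0% for *RhoB* and 74.4% for *RhoC*, beside a median of 52.4% over all windows. These are matches of letters in a short window, and binding was not measured.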

How the data were processed

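RNA samples of myotubes, 4 for each virus, were measured on Affymetrix arrays. The authors deposited log2 values made with RMA in Affymetrix Expression Console, which corrects the background, normalizes arrays by quantiles and summarises probes. No source used here gives versions or any further step. The methods name another Affymetrix array than the row identifiers do, and 3 cultures per group where the labels give 4. All 8 arrays were kept.

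Of 22206 rows, 19572 name 1 gene, 0 name several and 2634 are unnamed here. The brightest row stood for each of 19505 genes. Groups were compared with limma 3.58.1 in R 4.3.3 (lmFit and eBayes, two-sided, Benjamini-Hochberg over all genes) and, for the 3 genes and their within-array differences, with two-sided exact permutation tests. The smallest p these allow is 0.0286 for 4 against 4 arrays and 0.125 for 4 pairs. The interval of a within-array difference rests on the pooled SD of both groups. The fit was tested on simulated data of 19505 genes with 200 changed. At an unadjusted p under 0.05 it recovered 85.0% of changes of 1 log2 unit and 99.0% of changes of 2. At an adjusted p under 0.05 it recovered 39.0% and 82.0%. The simulated noise was independent between arrays, without the likeness of real arrays that share a replicate number. These shares are thus a check of the fit and do not give its power for the real genes.

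Arrays with the same replicate number correlated at 0.561, 0.516, 0.623 and 0.557 after removal of the group means, and those with different numbers at -0.424 to 0.128. Every same-number value exceeds 0.1, so replicate numbers were used as pairs on the strength of this check, as no source states what a number stands for. Alternatives were the replicate block, renewed quantile normalization, median centring, a filter at the median row mean, averaging the rows of each gene, trend and robust settings, array weights, a gene-wise test and the removal of arrays.

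The 3 genes, the 16 lists (11 of pathways and responses, 5 of cell type markers, 236 of 252 entries matched) and the tests were chosen with earlier results of these data known. Genes named by rule are the 3, up to 4 genes of each pathway list with the smallest p among those that pass the study's thresholds (or the largest shift where none passed), and the 3 genes with the highest and the 3 with the lowest r to each of the 3 genes. Acta1, Acta2, Cdc42, Ckm, Cnn2, Diaph1, Egr1, Myh3, Myl9, Mymx, Myog, Rac1, Rap1gds1, Rnd3, Rock1, Stard13 and the chromosomal neighbours lie outside this rule and were named after their values were seen. Promoters come from RefSeq (GRCm38.p6), where all 3 genes matched.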

Additional observations from a re-analysis of the deposited data

Results flagged for a closer look

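Of 86 groups of 4 arrays, 2 for each of the 43 genes named by rule, 6 held 1 array whose gap to the next value, as a share of the group's range, exceeded Dixon's critical value for 4 samples, and 0 of these were groups of *RhoA*, *RhoB* or *RhoC*. Genes named outside the rule were not checked. Chance flags about 1 group in 20. *Dctn2* was 12.65 in Ad-Cre-mCherry replicate 1, against 11.74 to 11.88 in the other 3 arrays, and *Ppp1r12a* was 9.45 in the same array, against 10.51 to 10.67. *Hace1* was 7.0 in Ad-mCherry replicate 4, against 6.66 to 6.71, and *Krt18* was 4.73 in that array, against 3.86 to 3.97. *Ptgs2* was 7.56 in Ad-Cre-mCherry replicate 4, against 6.48 to 6.62. *Vav2* was 5.53 in Ad-mCherry replicate 1, against 4.76 to 4.87.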

How the results depend on the processing

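*RhoA* kept its direction and passed the thresholds of the study under all 8 alternatives that keep every array and in 11 of 12 that leave arrays out (-0.95 to -0.60), and with the block in 4 of 4 that leave out a replicate number (-0.95 to -0.63). *RhoB* passed under none. Over the 12 it ranged from -0.25 to 0.10, with the sign turned without replicate 1 (0.10, and 0.10 with the block) and without Ad-Cre-mCherry replicate 1 (0.00), and it was not tested among genes at or above the median row mean, where its row does not belong. *RhoC* kept its direction throughout (0.49 to 1.2) but missed the thresholds in 8 of the 12 and in the gene-wise test with unequal variances (0.87, p = 0.104 without shared variance, no exact test). With the block it passed without each replicate number in turn (0.52 to 1.2). The *RhoC* minus *RhoA* shift was 1.63 with the replicate block too, where the exact sign-flip test over 4 pairs gave 0.125, the smallest possible. It was 1.09 to 1.87 over the 12 settings, and 6 of them missed 0.05, the 4 with 3 against 3 arrays, which cannot go below 0.1, and those without Ad-mCherry replicate 2 or 3 (exact p = 0.0571 each, where 0.0286 was possible). *RhoB* minus *RhoA* ranged from 0.42 to 0.81 and *RhoC* minus *RhoB* from 0.42 to 1.41, the latter with an exact p of 0.0286 without Ad-Cre-mCherry replicate 4 (1.29). Of all genes, 1252 passed the thresholds of the study, 2875 with the replicate block, 720 among genes at or above the median row mean (fewer genes tested), and 694 to 1540 with arrays left out, with 775 without replicate 1 and 694 without replicate 2. With the block and replicate 1, 2, 3 or 4 left out, the counts were 2066, 1914, 2826 and 2938. At an adjusted p under 0.05 limma called 0 genes, 63 with the block, and 45, 0, 0 and 14 with the block and replicate 1, 2, 3 or 4 left out. The block fits without a replicate number were added after the data were seen. The cause of these shifts was not tested.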

Other observations

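The 2 genes on either side of each of the 3 on their chromosomes were read as a description, chosen after the data were seen. Of these 12 neighbours, 1 passed the thresholds of the study, which is near the share of all genes, 6.42% in either direction and 3.50% lower. It was *Pum2*, which encodes an RNA-binding translational repressor and is the second gene from *RhoB* (log2 fold change -0.65, standard error 0.22). Next to *RhoA* lie *Tcta* (0.37, standard error 0.22) and *Gpx1*, a glutathione peroxidase (0.00, standard error 0.46). Next to *RhoC* lie *Ppm1j*, a phosphatase (0.23, standard error 0.35), and *Mov10*, an RNA helicase (-0.21, standard error 0.18). Next to *RhoB* lie *Hs1bp3* (0.41, standard error 0.19) and *Slc7a15* (-0.78, standard error 0.35).

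Lists of responses that a virus, Cre or a stimulus can evoke were counted as well. Of 17 measured genes of the DNA damage and p53 response 5 were higher and 12 lower (median -0.23), and 4 were lower by the thresholds of the study, 23.5% beside 3.50% of all genes. They were the receptor *Eda2r* (-0.97, standard error 0.22), the kinase *Plk2* (-1.19, standard error 0.32), *Phlda3*, an inhibitor of Akt (-0.56, standard error 0.18), and *Sesn1*, a sestrin (-0.74, standard error 0.26). *Sesn1* passed in 10 of the 12 settings with arrays left out, not without replicate 1 (-0.46) or without replicate 2. With the replicate block 6 of the 17 passed downward, 35.3% beside 8.20% of all genes, and 1 upward. Of 18 immediate early genes 8 were higher and 10 lower (median -0.10) and 0 passed, beside 6.42% of all genes, with *Myc* at -0.98 (standard error 0.51). With the block 3 of these passed downward, 16.7% beside 8.20% of all genes, and 3 upward, where 6.54% of all genes did. *Myc* had an adjusted p of 0.0637 in limma with the block. Of 17 genes of the interferon response 8 were higher and 9 lower (median -0.01) and 0 passed, beside 6.42% of all genes, with *Ifit2* at -1.27 (standard error 0.74). With the block 2 of these passed downward, 11.8% beside 8.20% of all genes, and 2 upward, where 6.54% of all genes did. *Ifit2* had an adjusted p of 0.0528 in limma with the block.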
